A study of Hordeum vulgare with 32 samples.

Results

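The vrs1 introgression line of barley was compared with its recurrent parent, the cultivar Bowman, in main shoot apices at Waddington stage W5.5. The comparison took every library labelled with either line at that stage, 3 vrs1 libraries and 4 Bowman libraries, which is 7 of the 32 libraries of the series. The test covered each of the 30174 transcripts listed. The vrs1 plants were an introgression line in cv. Bowman held as stock GSHO 1907. Bowman was sampled as the cultivar itself. Neither line was treated, and both grew under long days, with 16 h of light at 22 °C followed by an 8 h night at 18 °C. The labels do not give the lesion at the vrs1 locus, the extent of the donor segments, or whether libraries of a line came from separate plants. P-values therefore measure the spread between libraries of a group, which may be technical. That spread was estimated from all 32 libraries of the series and not from the 7 alone. The rest of the series holds the same lines at W3.5 and the introgression lines int-a.1 (GSHO 2055), vrs4.k (GSHO 1986) and int-c.5 (GSHO 2003), which are also in cv. Bowman, with 3 libraries per group. The sample labels give the later stage as W5.5, and the headers of the table give it as W5.0.

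Barley carries a central spikelet and a pair of lateral spikelets at each rachis node. VRS1 encodes a homeodomain-leucine zipper class I transcription factor that is expressed in lateral spikelet primordia and restrains their growth, so that only the central spikelet sets grain. Where VRS1 function is lost, the lateral spikelets can develop and set grain too. Waddington stages score how far the shoot apex and its florets have developed.

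The values are TPM, a length- and library-scaled abundance, and the 32 libraries summed to between 980945.2 and 987728.5 TPM. The read depth behind a TPM value cannot be recovered, so it is unknown here. Across transcripts, log2(TPM + 1) of the 7 libraries correlated pairwise with r between 0.94 and 0.973. None of the 7 lay apart from its stage on the first principal component, although 4 of the other 25 libraries did. Apart here means beyond the median score of the other stage. The score of vrs1 replicate 2 was -4.38, nearer the W3.5 median of -22.91 than the W5.5 median of 18.6. Of the 32 libraries, 10 correlated best with the mean of the other libraries of their own group. Among the 7 these were vrs1 replicate 1 and Bowman replicates 2 and 3. Markers of the meristem, of floral organs, of the vasculature, of the epidermis, of green tissue and of dividing cells were all detected, and in each list the range of the summed level in vrs1 overlapped that in Bowman. The 25 meristem transcripts summed to between 285.5 and 354.3 TPM in vrs1 and to between 291.5 and 355.2 TPM in Bowman. The 62 green-tissue transcripts summed to between 1625 and 1681 TPM in vrs1 and to between 1489 and 2183 TPM in Bowman. In these bulk apices, fewer cells of a type and less RNA per cell cannot be told apart.

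At W5.5, 98 transcripts differed between vrs1 and Bowman, 17 of them higher and 81 lower in vrs1. A transcript was called when its adjusted p was below 0.05 in limma on log2(TPM + 1), with Benjamini-Hochberg adjustment over all transcripts. The calls made up 0.325% of the transcripts tested, 0.0563% being higher and 0.268% lower. Before adjustment, 588 transcripts were higher and 710 lower at p below 0.05. The median absolute log2 fold change of the 98 was 1.72, and 97 had an absolute log2 fold change of at least 1. Over all transcripts the median log2 fold change, with its sign kept, was -0.03, which is not a like measure. Calling selects large changes and groups that stand apart, so these sizes, the overlap and the sums below only describe the calls. The vrs1 and Bowman values did not overlap in any of the 98, against 5.66% of all transcripts. The 81 lower transcripts summed to 403.3, 406.5 and 405.2 TPM in the 3 vrs1 libraries, against 1750, 1702, 1905 and 1775 TPM in the 4 Bowman libraries. The 17 higher transcripts summed to 307.4, 272.6 and 319.5 TPM in vrs1, against 79.1, 104.7, 76.2 and 116.8 TPM in Bowman.

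The transcript of the locus for which the line is named did not pass the test. AB259783.1 (MLOC_4993.2), a homeodomain-leucine zipper class I transcript at map position 79.39 of chromosome 2, stands for VRS1. It had 19.6, 16.8 and 30 TPM in vrs1, against 16.5, 19.4, 12.9 and 30.9 TPM in Bowman. The groups overlapped fully, and the log2 fold change was 0.17 (95% interval -0.82 to 1.16, limma adjusted p = 0.993). Since the labels do not say what the allele does to the RNA, this level is no check of the line's identity. Against the mean of int-a.1, vrs4.k and int-c.5, which averaged 5.1, 0.767 and 7.63 TPM, it was higher in vrs1 by 2.39 on the log2 scale (SE 0.42, limma adjusted p = 0.00586). Bowman, with a mean of 19.92 TPM, lay above these lines as well. At W3.5 the transcript averaged 7.63 TPM in vrs1 and 10.45 TPM in Bowman. Whether the apices of the other lines were as far developed as those of vrs1 was not tested. Transcripts of the families of 3 other row-type loci did not pass against Bowman either. The table gives them no locus name, and they were taken from their family and map position. MLOC_70116.1 (for INT-C), a TCP-family transcript related to TEOSINTE BRANCHED 1, had 6.57 ± 1.79 TPM in vrs1 and 5.78 ± 1.82 TPM in Bowman (SD, n = 3 and 4; log2 fold change 0.17, 95% interval -0.35 to 0.69). AK373051 (for VRS4), a LOB-domain transcript, had 3.73 ± 0.60 TPM in vrs1 and 3.83 ± 1.20 TPM in Bowman (log2 fold change -0.003, 95% interval -0.42 to 0.42). MLOC_69611.1 (for VRS3), a jumonji-domain transcript, had 5.97 ± 1.05 TPM in vrs1 and 6.15 ± 1.06 TPM in Bowman (log2 fold change -0.04, 95% interval -0.50 to 0.43). The smallest limma adjusted p of the 3 was 0.99. MLOC_70116.1 averaged 2.13 TPM in int-a.1, 1.8 TPM in vrs4.k and 3.02 TPM in int-c.5, and was higher in vrs1 than in their mean by 1.19 (adjusted p = 0.00905). At W3.5 it averaged 2.433 TPM in vrs1 and 3.175 TPM in Bowman.

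Close to VRS1 on the map, 3 high-confidence transcripts differed between the lines, all within 3 map units of it. In that window, a width chosen after the values were seen, 102 transcripts were tested and 3 were called, or 2.94%. At an unadjusted p below 0.05 there were 12 of the 102, or 11.8%, against 4.3% of all transcripts. The median log2 fold change in the window was -0.03, as over all transcripts.

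The most changed of these neighbours was MLOC_77511.1, which matches a kinesin, a motor protein that moves along microtubules, and lies 0.64 map units from VRS1. It had 8.9, 7.4 and 8.9 TPM in vrs1, against 0.9, 0.8, 0.9 and 0.9 TPM in Bowman. Every vrs1 library was above every Bowman library, with means in the ratio 9.6 (log2 fold change 2.32, SE 0.13, limma adjusted p = 1.54e-11). AK367537, a calmodulin-related EF-hand transcript of the kind that binds calcium, lies 2.3 map units on the other side of VRS1. It had 11.8, 10.6 and 13 TPM in vrs1, against 5.8, 4, 5 and 6.2 TPM in Bowman. It rose in vrs1 by 1.04 on the log2 scale (SE 0.12, limma adjusted p = 3.49e-06), and with only the 7 libraries in the fit the adjusted p was 0.061. MLOC_22984.1, a transcript with a heavy-metal-associated domain at a distance of 2.69, went the other way. It had 1.3, 1.4 and 2.3 TPM in vrs1, against 6.1, 7.2, 6.4 and 4.7 TPM in Bowman. Its highest vrs1 value was below its lowest Bowman value (log2 fold change -1.42, SE 0.26, limma adjusted p = 0.00405), and without vrs1 replicate 1 the call was lost (-1.32, adjusted p = 0.0562). Among the neighbours that did not pass, AK370622, a cytochrome b561-type transcript, was picked after its values were seen. It averaged 6.7 TPM in vrs1 and 2.33 TPM in Bowman (log2 fold change 1.22, adjusted p = 0.391).

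**Figure D1:**
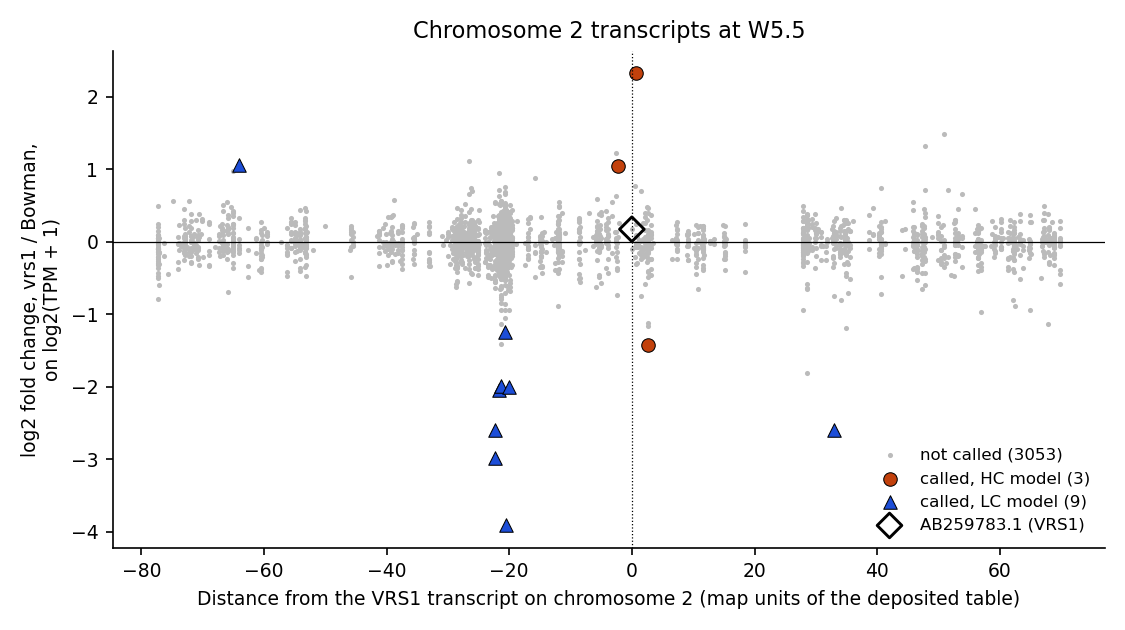
Log2 fold change of vrs1 over Bowman at W5.5 for the 3065 tested transcripts of chromosome 2, against their distance from the VRS1 transcript in the map units of the deposited table. The 3 called high-confidence models lie within 3 units of VRS1, and 7 called low-confidence models, all lower in vrs1, lie between 20.04 and 22.34 units away.

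By their rice matches in the deposited table, 2 more calls fell in the rice interval of these neighbours. A rice match does not place a transcript on the barley map. MLOC_77511.1 matches rice locus LOC_Os04g45580.1, AK367537 matches LOC_Os04g45180.1 and MLOC_22984.1 matches LOC_Os04g49260.1, all on rice chromosome 4. In the window around VRS1, 56 of the 77 transcripts with a rice locus match rice chromosome 4. The rice interval between the outer pair of these loci, an interval set by the calls themselves, is matched by 163 tested transcripts. Of the 132 that have a barley chromosome, 117 lie on chromosome 2. It holds 5 calls, or 3.07% against 0.325% of all transcripts, but 3 of the 5 are the neighbours of VRS1 from which the interval was drawn. The other 2, AK363795 and AK249918.1, have no chromosome in the table, so their place on the barley map is unknown.

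AK363795 matches the same rice kinesin locus as MLOC_77511.1 and moved in the opposite direction. It had 0.1 TPM in each of the 3 vrs1 libraries, against 8.8, 7.8, 7.1 and 8.1 TPM in Bowman. One kinesin transcript was near 0 in vrs1 while the other was near 0 in Bowman (AK363795 log2 fold change -3.02, SE 0.17, limma adjusted p = 1.9e-11). The 2 rows can share reads where their sequences are alike, and the table does not say how such reads were divided. AK249918.1, whose rice match is a putative DNA-binding protein at LOC_Os04g45200.2 and which was picked after its values were seen, averaged 0.433 TPM in vrs1 and 3.38 TPM in Bowman (log2 fold change -1.61, adjusted p = 7.47e-07).

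The call with the smallest adjusted p was AK374443, which matches the GDA1/CD39 nucleoside phosphatases, enzymes of the apyrase kind that remove phosphate from nucleotides. It had 5.7, 7.2 and 7.3 TPM in vrs1, against 0, 0, 0 and 0.3 TPM in Bowman. The transcript was clearly present in each vrs1 library and listed at 0 in 3 of the 4 Bowman libraries (log2 fold change 2.85, SE 0.14, limma adjusted p = 1.28e-12). It has no chromosome in the table, and its rice match, LOC_Os03g26080.1, is not on rice chromosome 4. MLOC_59755.2, a low-confidence model on chromosome 3 (position 118.91), matches rice OsMADS65, of the MIKC*-type MADS-box genes that in Arabidopsis act in pollen. It had 36.7, 15 and 24.7 TPM in vrs1, against 4.1, 5.9, 3.4 and 7.3 TPM in Bowman. Levels in vrs1 varied more than 2-fold between libraries but stayed above every Bowman value (log2 fold change 2.06, SE 0.37, adjusted p = 0.00343). Without vrs1 replicate 1 it was 1.76 and did not pass (adjusted p = 0.0752), nor with only the 7 libraries in the fit (adjusted p = 0.104).

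**Figure D2:**
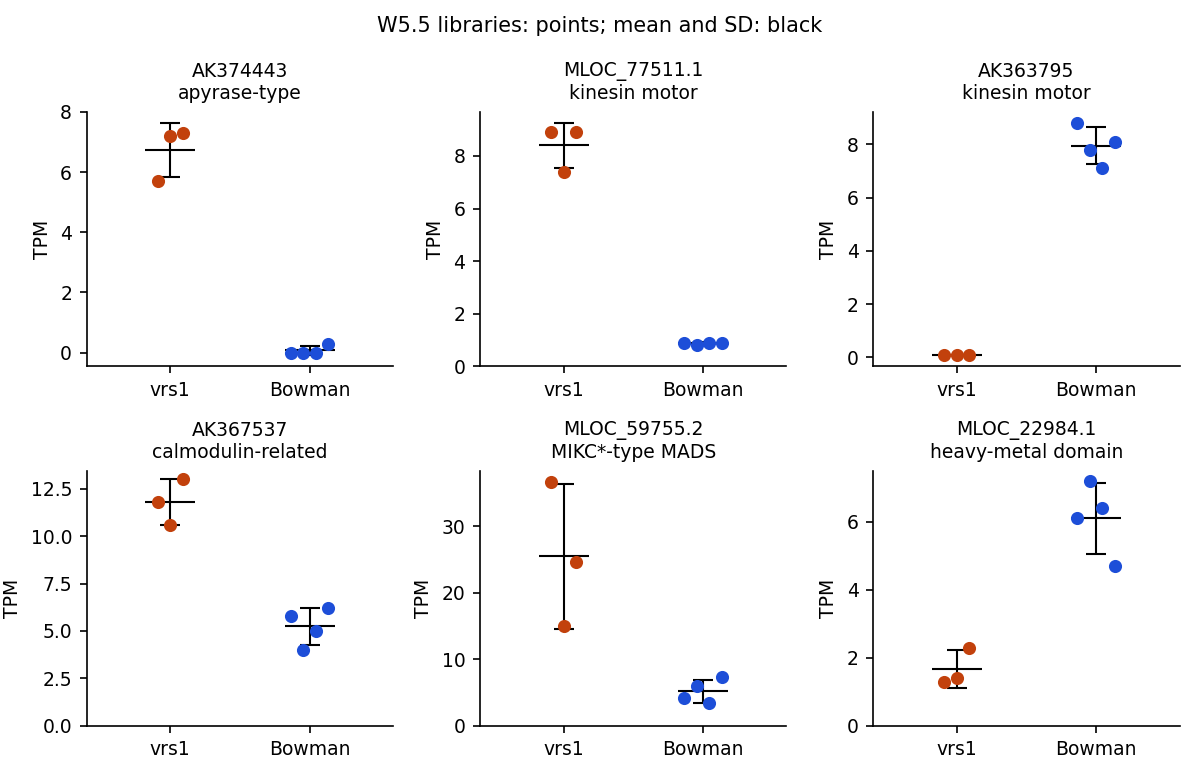
TPM of 6 transcripts in each W5.5 library, with vrs1 on the left and Bowman on the right of each panel; points are libraries and black bars the mean and SD. The 2 lines do not overlap in any panel, and the kinesin transcripts MLOC_77511.1 and AK363795 run in opposite directions.

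These transcripts were set against the 3 other introgression lines at W5.5, in a test of vrs1 against the mean of int-a.1, vrs4.k and int-c.5 whose group means use no Bowman library but the same vrs1 libraries. Bowman libraries still entered the shared estimate of the spread. With only the compared groups in the fit, 93 transcripts were called, 63 of them among those of the shared fit. The shared fit called 99 transcripts, or 0.328% of those tested, 46 higher (0.152%) and 53 lower (0.176%) in vrs1. AK374443 averaged 6.73 TPM in vrs1, against 0, 0.033 and 0.015 TPM in int-a.1, vrs4.k and int-c.5 (log2 fold change 2.92, adjusted p = 2.92e-14). MLOC_77511.1 averaged 8.4 TPM in vrs1, against 0.667, 0.7 and 0.763 TPM in these lines (2.46, adjusted p = 1.73e-13). AK363795 averaged 0.1 TPM in vrs1, against 8.4, 7.87 and 8.13 TPM (-3.05, adjusted p = 6.81e-13). The same test was passed by AK367537 (0.90, adjusted p = 8.84e-06), MLOC_22984.1 (-1.18, adjusted p = 0.0115), AK249918.1 (-1.67, adjusted p = 5.36e-08) and MLOC_59755.2 (2.07, adjusted p = 0.00153). For all 7, vrs1 stood apart from the other introgression lines as it did from Bowman. Without 1 of the vrs1 libraries the count of this test fell to between 34 and 46.

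A much larger share of the calls belonged to groups of transcripts that share a best Arabidopsis match. In Arabidopsis, histidine kinase 5 is a sensor kinase of the 2-component signalling family, placed with ethylene, abscisic acid and redox responses in guard cells and roots. The table holds 15 transcripts with this best match, 10 of them high-confidence and 5 low-confidence, and all 15 also match a single rice locus, LOC_Os06g44410.1. All 15 were called lower in vrs1, against 0.268% of all transcripts, with log2 fold changes between -2.98 and -1.48 and a median of -2.59. Together they summed to 81.5, 70.4 and 53 TPM in vrs1, against 516.9, 463.1, 550.1 and 514.9 TPM in Bowman. Every vrs1 library was below every Bowman library in each of the 15, and 5.66% of all transcripts had lines that did not overlap. This family was singled out after its values were seen, and its rows may not be independent, since transcripts with alike sequences can share reads, which was not tested.

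The histidine kinase 5 transcripts spanned Bowman levels from 2.85 to 98.2 TPM and each fell in vrs1. The highest in Bowman, MLOC_46165.1, had 18.2, 13.3 and 6.8 TPM in vrs1, against 108.1, 96.5, 98.6 and 89.5 TPM in Bowman (log2 fold change -2.94, SE 0.31, limma adjusted p = 2.14e-06). MLOC_41222.1, near the low end, had 1.1, 0 and 0 TPM in vrs1, against 9, 7, 6.6 and 6 TPM in Bowman (-2.66, adjusted p = 2.85e-06). The largest fall among them was that of MLOC_42987.1, a low-confidence model at position 57.12 of chromosome 2, with 3.8, 3.5 and 2 TPM in vrs1, against 30.7, 28.5, 36.3 and 28.1 TPM in Bowman (-2.98, adjusted p = 2.43e-07). Another copy, MLOC_77822.1, lies on chromosome 2 at 112.32 (-2.59), MLOC_49082.1 (-2.54) and MLOC_3247.1 (-1.48, not called with a pseudocount of 0.1) lie on chromosome 3, and the other 11 have no chromosome in the table. MLOC_32009.1 (-2.90), MLOC_41692.1 (-2.85) and MLOC_42641.1 (-2.81) are among those 11.

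Low levels of these transcripts were not limited to vrs1. Over the 15, the median of the group means was 2.57 TPM in vrs1, 9.7 TPM in int-a.1, 2.43 TPM in vrs4.k and 16 TPM in int-c.5, against 19.8 TPM in Bowman. Against Bowman, 15 were called lower in vrs4.k, 2 in int-a.1 and 0 in int-c.5, where calls of lower transcripts made up 0.55%, 0.597% and 0.053% of those tested. All 4 comparisons share the Bowman libraries. In int-a.1 the libraries disagreed, with sums of 124.5, 327.8 and 324.5 TPM, so that replicate 1 lay nearer the vrs1 libraries and the other 2 between vrs1 and Bowman. Against the mean of the 3 other lines, vrs1 was lower in 12 of the 15, where 0.176% of all transcripts were called lower.

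**Figure D3:**
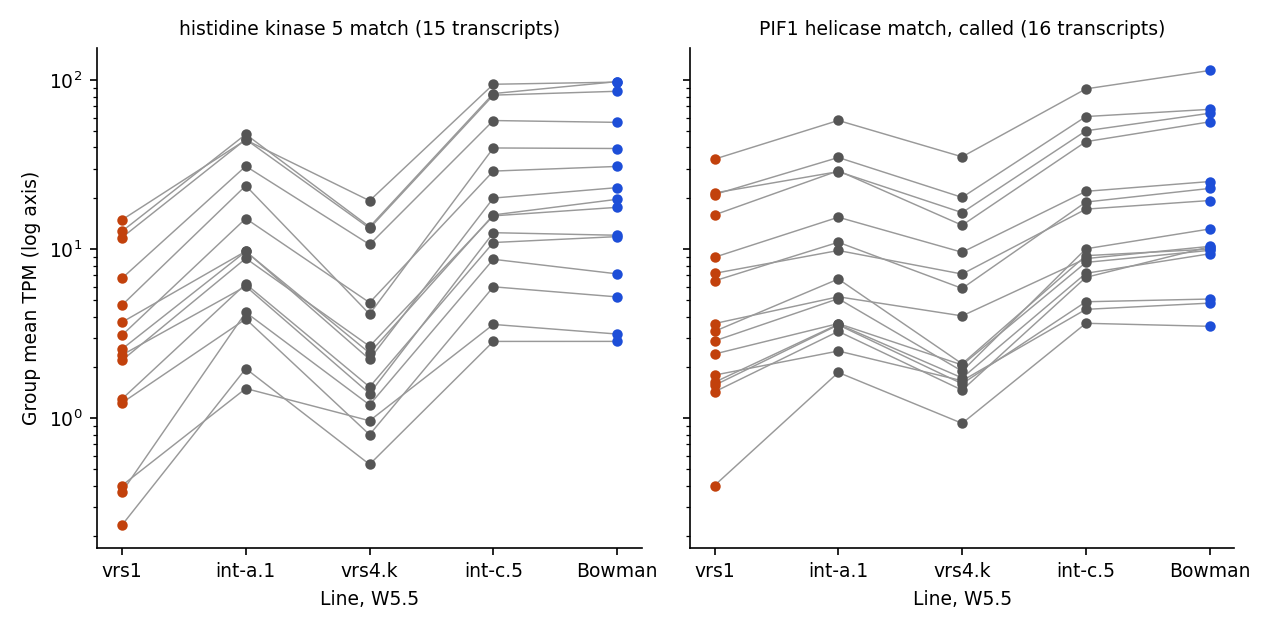
Group mean TPM at W5.5 on a log axis for each transcript with a histidine kinase 5 match (left, 15 transcripts) and each called transcript with a PIF1 helicase match (right, 16 transcripts), in vrs1, int-a.1, vrs4.k, int-c.5 and Bowman. Lines join 1 transcript across the barley lines; vrs1 and vrs4.k are low, int-a.1 is in between and int-c.5 is near Bowman.

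Transcripts matching PIF1 helicase, the family of DNA helicases that plant Helitron transposons also encode, formed the next group. Of 76 such transcripts, 16 were lower and 0 higher in vrs1, against 0.268% and 0.0563% of all transcripts. The log2 fold change was negative in 74, with a median of -0.33 over the 76, against -0.03 over all transcripts. All 76 together summed to 2813, 2295 and 2877 TPM in vrs1, against 2877, 4181, 3716 and 3072 TPM in Bowman, so that the lines met at 2877 TPM. The 16 that were called lower, and so had to differ, summed to 128.6, 140.8 and 133.7 TPM in vrs1, against 435.6, 425.5, 483.7 and 439.3 TPM in Bowman. MLOC_81356.1 was the most abundant of the 16, with 33.7, 38.4 and 30.3 TPM in vrs1, against 103.6, 113.6, 127 and 112.7 TPM in Bowman (log2 fold change -1.72, SE 0.21, limma adjusted p = 1.55e-05). The vrs1 libraries were close to each other and well below the lowest Bowman library. MLOC_70784.1, at position 142.92 of chromosome 3, averaged 7.2 ± 1.47 TPM in vrs1 and 19.4 ± 1.23 TPM in Bowman (-1.33, adjusted p = 0.000815). The 60 members that did not pass had a median log2 fold change of -0.28 and reached group means of up to 428.6 TPM in vrs1 and 514.2 TPM in Bowman. Against the same Bowman libraries, 18 members were called lower in vrs4.k, 7 in int-a.1 and 0 in int-c.5, where 0.55%, 0.597% and 0.053% of all transcripts were. The test of vrs1 against the mean of these 3 lines called 0 of the 76, and its calls of lower transcripts made up 0.176% of all tested. This group, too, was singled out after its values were seen, and its rows may not be independent, since they may share reads, which was not tested.

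A pair of high-confidence transcripts matching MuDR-family transposases went the other way and was higher in vrs1. MLOC_37037.1 had 14.8, 18.5 and 15.3 TPM in vrs1, against 3.3, 0.8, 1 and 3.3 TPM in Bowman (log2 fold change 2.58, SE 0.31, limma adjusted p = 1.06e-05). MLOC_43354.2 had 26.4, 29 and 22.4 TPM in vrs1, against 5.9, 0.4, 0.6 and 4.9 TPM in Bowman (3.12, adjusted p = 0.00128). In both, Bowman replicates 1 and 4 were higher than replicates 2 and 3, and all 4 were below vrs1. The other 13 transcripts with this match did not pass and had a median log2 fold change of -0.06. Means in the other introgression lines were above that of vrs1, with MLOC_37037.1 averaging 24.8 TPM in int-a.1, 29.7 TPM in vrs4.k and 27.4 TPM in int-c.5. Neither passed against the mean of those lines. Both were picked as a pair after their values were seen.

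Histidine kinase 5, PIF1 and MuDR matches accounted for 33 of the 98 calls and for 19 of the 28 calls in high-confidence models. Another 42 calls had no Arabidopsis or rice match at all, which is 0.374% of the 11228 unmatched transcripts and near the 0.325% of all transcripts. Of these, 34 were lower and 8 higher in vrs1, and 41 of the 42 were low-confidence models. The largest fall of all was in one of these, MLOC_54513.1, at position 58.92 of chromosome 2, which had 2.9, 2.7 and 3.9 TPM in vrs1, against 65.8, 47.1, 67.9 and 65.9 TPM in Bowman (log2 fold change -3.91, SE 0.38, limma adjusted p = 4.77e-07). The unmatched transcripts named here were picked for the size of their change. The remaining 23 calls had a match outside these 3 families.

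Calls were counted by map and model class, with no test between classes. Chromosome 2 held 12 calls among 3065 transcripts, or 0.392%, and the other 6 chromosomes held 21 among 14184, or 0.148%. Among those 6, chromosome 3 held 8 of 2452, or 0.326%, and the others ran from 0.0373% on chromosome 7 to 0.175% on chromosome 4. Transcripts with no chromosome held 65 of the 98 calls, at 0.503% of 12925. By model class, 28 of 13505 high-confidence models were called (0.207%), 68 of 15854 low-confidence models (0.429%) and 2 of 815 transcripts with no class. On chromosome 2, 3 of 1643 high-confidence models were called, and all 3 are the neighbours of VRS1 described above. The 9 calls among its 1422 low-confidence models lay elsewhere. Of these, 7 lay between positions 57.05 and 59.35, in a bin of 10 map units that alone holds 1443 of the tested transcripts of the chromosome, so that the bin's share of calls was 0.485%. All 7 were lower in vrs1, all 7 were called at W3.5, and against Bowman 7 were called lower in vrs4.k, 4 in int-a.1 and 0 in int-c.5. Over all transcripts, 0.341% were called at W3.5. Those called lower made up 0.55% in vrs4.k, 0.597% in int-a.1 and 0.053% in int-c.5. The 7 were picked as calls at W5.5, and the comparisons of lines at W5.5 share the Bowman libraries. The exceptions on the chromosome were MLOC_77822.1 at 112.32 and MLOC_27160.1 at 15.37, an unmatched transcript that averaged 7.97 TPM in vrs1 and 3.35 TPM in Bowman (log2 fold change 1.05, adjusted p = 0.000906). Away from chromosome 2, calls shared a map position in 4 places, each time as a pair. These positions held 13, 143, 12 and 54 tested transcripts, and grouping of calls was not tested. At position 49.22 of chromosome 6 the pair ran in opposite directions.

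**Figure D4:**
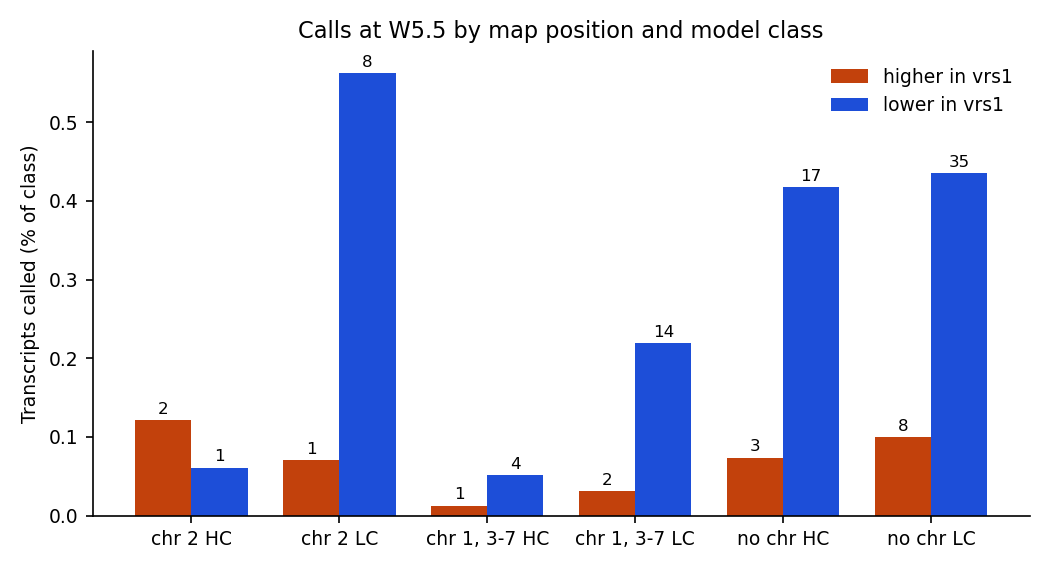
Transcripts called at W5.5 as a percentage of each class, split by map position (chromosome 2, chromosomes 1 and 3 to 7, no chromosome) and by high-confidence (HC) or low-confidence (LC) model; orange bars are higher and blue bars lower in vrs1, with counts above the bars. On chromosome 2 2 of the 3 high-confidence calls were higher and 8 of the 9 low-confidence calls were lower.

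Among the other matched transcripts, several levels fell by more than 2-fold. MLOC_25487.2, a low-confidence model matching a serine carboxypeptidase-like protein (chromosome 2, position 57.05), had 2.9, 2.8 and 3.2 TPM in vrs1, against 24, 21, 26.2 and 21 TPM in Bowman (log2 fold change -2.60, SE 0.24, limma adjusted p = 2.43e-07). AK373820, a high-confidence chloroplast RNA-binding protein of the CSP41B type, which in Arabidopsis acts on plastid RNA, had 20.1, 19.9 and 20.8 TPM in vrs1, against 44.5, 66.4, 56.7 and 47.5 TPM in Bowman (-1.35, adjusted p = 4.77e-07). The vrs1 values of AK373820 lay within 1 TPM of each other and below the lowest Bowman value, and int-a.1 and vrs4.k averaged 22.8 and 20.8 TPM, against 51.8 TPM in int-c.5. MLOC_50345.1, which matches REF6, a jumonji-domain histone demethylase of Arabidopsis that acts on flowering time, averaged 2.07 ± 0.90 TPM in vrs1 and 15.8 ± 1.90 TPM in Bowman (-2.48, adjusted p = 2.27e-05). MLOC_28386.1, matching the autophagy protein ATG18, averaged 4.7 ± 0.7 TPM in vrs1 and 16.3 ± 1.59 TPM in Bowman (-1.60, adjusted p = 0.00216). Both are low-confidence models. In int-a.1, vrs4.k and int-c.5, MLOC_50345.1 averaged 5.5, 4.13 and 16.7 TPM, and MLOC_28386.1 averaged 8.03, 5.37 and 13.9 TPM. MLOC_25487.2 averaged 10.3, 2.8 and 21.6 TPM in these lines. Against the same Bowman libraries, each of these transcripts was also called lower in vrs4.k. In int-a.1, MLOC_50345.1 and MLOC_25487.2 were called lower and MLOC_28386.1 was not.

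Calls of 3 other transcripts that were higher in vrs1 depended on single libraries. MLOC_77081.1, a high-confidence NB-ARC transcript of the disease-resistance receptor kind (chromosome 6, position 49.22), had 11.5, 14.2 and 11.5 TPM in vrs1, against 8.3, 8.4, 9.2 and 7.8 TPM in Bowman. It was the smallest called difference in the comparison (log2 fold change 0.50, SE 0.10, limma adjusted p = 0.0176), and without vrs1 replicate 2 it was 0.41 and did not pass (adjusted p = 0.333). It was also not called without Bowman replicate 1, 2 or 4, with adjusted p between 0.0502 and 0.0873. MLOC_33805.1, with a match to a mitochondrial ribosomal protein, had 1.6, 8.2 and 4.4 TPM in vrs1, against 0, 0, 0 and 1 TPM in Bowman (2.09, adjusted p = 0.0273). Its call was lost without vrs1 replicate 2 (adjusted p = 0.485) or 3 (adjusted p = 0.161) and without Bowman replicate 1, 2 or 3 (adjusted p between 0.104 and 0.112). MLOC_71389.1, a bHLH transcription factor transcript, averaged 7 ± 2.52 TPM in vrs1 and 2.45 ± 0.33 TPM in Bowman (1.17, adjusted p = 0.033). That call was lost without any 1 of the 4 Bowman libraries (adjusted p between 0.0647 and 0.141) and without vrs1 replicate 1 (adjusted p = 0.118) or 2 (adjusted p = 0.547).

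Just 3 transcripts were listed at 0 in all libraries of one line and at 1 TPM or more in all of the other, and all 3 were at 0 in vrs1. MLOC_24307.1, which matches peroxin 6, an ATPase of peroxisome import, was the only one with an informative match. It had 0 TPM in each vrs1 library, against 2.8, 3.4, 2.9 and 1.3 TPM in Bowman, and did not pass the test (limma adjusted p = 0.181), though it did with only the 7 libraries in the fit (adjusted p = 0.024) or with library weights (adjusted p = 0.0499). At W3.5 it averaged 2.1 TPM in vrs1 and 2.63 TPM in Bowman. MLOC_43259.1, with no match, was called (log2 fold change -1.57, adjusted p = 0.002), and MLOC_79801.4, also unmatched, was not (adjusted p = 0.94).

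The same lines were compared at W3.5, where the group means come from other libraries but the estimate of the spread is the one shared by all 32. At W3.5, 103 transcripts were called, or 0.341% of those tested, 14 higher (0.0464%) and 89 lower (0.295%) in vrs1. With only the compared groups in each fit, 25 were called at W3.5 and 76 at W5.5. Of the 103, 80 were also called at W5.5, which is 81.6% of the W5.5 calls and 77.7% of the W3.5 calls, and all 80 had the same direction. Of the 98 W5.5 calls, 97 had the same sign at W3.5. AK374443 had 6.2, 8.4 and 8 TPM in vrs1, against 0.6, 0, 0 and 0 TPM in Bowman at W3.5. For MLOC_77511.1 the W3.5 values were 6.7, 10.7 and 5.9 TPM in vrs1, against 1, 0.7, 1.2 and 1 TPM in Bowman. The kinesin transcript AK363795 had 1.1, 0 and 0.1 TPM in vrs1, against 9.9, 7.7, 8.9 and 7.6 TPM in Bowman. Of the 15 histidine kinase 5 transcripts, 14 were called lower at W3.5 as well, where 0.295% of all transcripts were called lower.

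The difference between stages was tested as an interaction, and limma called 0 transcripts, the smallest adjusted p being 0.408, with 755 (2.5%) at an unadjusted p below 0.05. MLOC_22984.1, near VRS1, had the smallest unadjusted p among the named transcripts. At W3.5 it had 1.6, 2 and 1.8 TPM in vrs1, against 3.1, 2.2, 3.9 and 2.1 TPM in Bowman, and the W3.5 comparison did not call it (log2 fold change -0.43). The W5.5 change minus the W3.5 change was -0.99 on the log2 scale (SE 0.37). In the limma interaction its unadjusted p was 0.0117 and its adjusted p was 1. AK367537 rose by 1.04 at W5.5 and by 0.61 at W3.5, a difference of 0.43 (SE 0.16) with an unadjusted p of 0.0133 in limma. A p that misses the threshold does not show that the stages are alike.

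**Figure D5:**
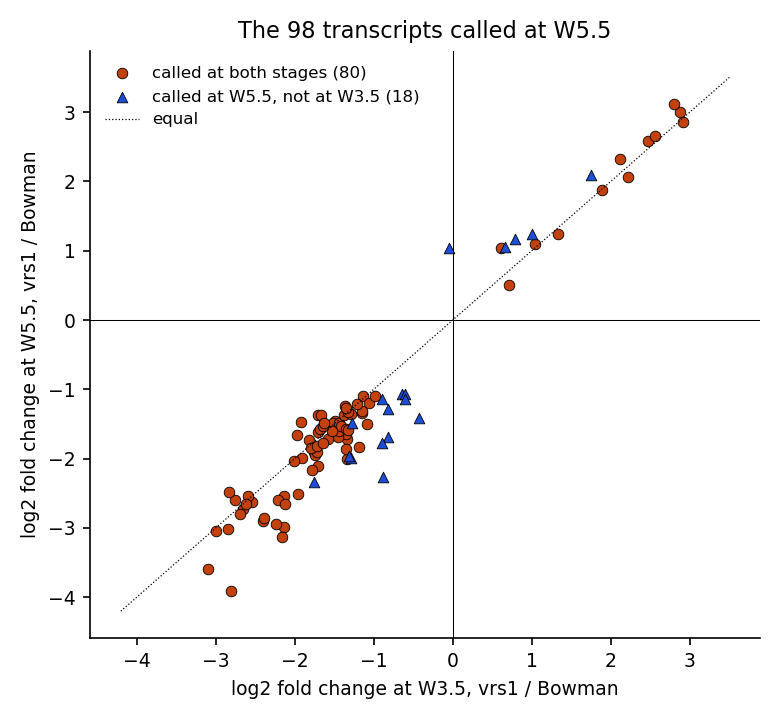
Log2 fold change of vrs1 over Bowman at W5.5 against that at W3.5 for the 98 transcripts called at W5.5; the dotted line marks equal changes. The 80 transcripts called at both stages share a direction, and 97 of the 98 have the same sign at both stages.

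Most gene groups of spike development held no call. Called transcripts made up 0.325% of all, so most lists of these sizes would be expected to hold none. The counts of 0 are thus no result about these families. Of 36 lists drawn from the Arabidopsis and rice matches, homeobox (133 transcripts), YABBY (6), TCP (21), SHI/STY (4), LOB-domain (7), AP2/ERF (108), SBP (19), NAC (24), MYB (124) and WRKY (25) transcription factors had 0 called in either direction, against 0.325% of all transcripts. MADS-box factors had 1 of 38 called, MLOC_59755.2, and bHLH factors 1 of 96, MLOC_71389.1. Auxin (108), gibberellin (45), abscisic acid (34), jasmonate (31), ethylene (59) and brassinosteroid (46) transcripts also had 0 called. The cytokinin list had 15 of 77 lower and 0 higher, and all 15 were the histidine kinase 5 transcripts. Trehalose and sucrose metabolism (41), cell cycle and replication (341), photosynthesis (80), cell wall enzymes (209), lipid transfer and seed storage (48), heat shock (221), protein kinases (826), cytochrome P450 and glycosyltransferases (171), F-box and ubiquitin (844) and pentatricopeptide repeat (230) lists had 0 called. Kinesins and myosins had 1 higher and 1 lower of 135, the pair described above. SET-domain and jumonji (81) and flowering-time (58) lists each had 1 lower, the same transcript MLOC_50345.1. The NB-ARC and receptor list (379) had 1 higher. The transposon list had 2 higher and 14 lower of 1371, against 0.0563% and 0.268% of all transcripts. The 2 higher were the MuDR pair, and the lower ones included PIF1 transcripts described above.

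A few lists had medians above that of all transcripts, with 0 or 1 call each. The 152 histone transcripts had a median log2 fold change of 0.20 and the 322 ribosomal protein transcripts one of 0.13, against -0.03 over all transcripts. The histone median lay between 0.09 and 0.33 when any 1 of the 7 libraries was left out, and the ribosomal median between 0.09 and 0.16. The histone transcripts summed to between 45760 and 49130 TPM in vrs1 and to between 32250 and 52210 TPM in Bowman, so the lines overlapped. The ribosomal transcripts summed to between 138600 and 151300 TPM in vrs1 and to between 124200 and 136500 TPM in Bowman, which did not overlap. The sums of the cytokinin list, which holds the histidine kinase 5 transcripts, did not overlap either. Taken singly, 5.66% of all transcripts had lines that did not overlap, so the gap alone is no result about ribosomal transcripts. At an unadjusted p below 0.05, 34 ribosomal transcripts, or 10.6%, were higher and 0 lower in vrs1, against 1.95% and 2.35% of all transcripts, and after adjustment 1 was called, the mitochondrial match MLOC_33805.1. No single cytosolic ribosomal protein passed. YABBY transcripts, from a family that acts in lateral organs, had a median of 0.27 over 6 transcripts (0.15 to 0.33 without 1 library) with summed levels of 177.1 to 241.5 TPM in vrs1 and 144.5 to 200.8 TPM in Bowman. TCP transcripts had a median of 0.21 (0.08 to 0.27 without 1 library). Dividing-cell markers, most of which are histones, had a median of 0.18 (0.08 to 0.32 without 1 library). Green-tissue markers had one of -0.13 (-0.20 to -0.03) and vascular markers one of -0.12 (-0.15 to -0.08). The part of these cell types in the list medians was not tested.

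The authors' deposited table lists 83 transcripts at a false discovery rate below 0.05 for vrs1 at the later stage, 17 higher and 66 lower. Of the 83 in the authors' deposited table, 77 were among the 98 called here.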

How the data were processed

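RNA of main shoot apices was profiled in 32 libraries of 5 barley lines at 2 stages. The authors deposited 1 table of 30174 transcripts. The expression columns are called raw counts per the file headers. Since the values have decimals and the library totals lie close together, the deposited columns were read as TPM. The authors deposited 1 column (int-c.5 W3.5 replicate 1) rounded to whole numbers, which is recorded as a score, since it is rounded TPM, and entered the fit with the others. Log2 fold changes and false discovery rates (adjusted p-values) of the authors' own comparisons, deposited in the same table per the file headers, were used only for the last comparison. BWA, Salmon, limma and GATK are named, without versions or roles, per the submitters' processing notes. No genome build is named in the sources used here, and the map positions have no stated unit. High-confidence and low-confidence models, map positions and matches are those of the table; none of its identifiers matched the gene table used as reference. No sequences are reported.

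Columns name a line and a stage but no sample, so each was assigned to its group and replicate numbers are names only. All 32 libraries were fitted in limma 3.58.1 (R 4.3.3) on log2(TPM + 1). The model had 10 groups, each a line at a stage, and no covariate, so that they share 1 estimate of the spread. The pseudocount shrinks the fold changes of low transcripts. P-values are 2-sided and adjusted by Benjamini-Hochberg over all transcripts. The fit was tested on simulated data. Transcripts were named by rule: in each of chromosome 2, the other chromosomes and no chromosome, up to 6 highest and 6 lowest called transcripts with an informative match and no overlap between the lines; the 4 row-type transcripts; up to 2 called members of each list; and transcripts at 0 in all libraries of 1 line. Exceptions are marked as picked after their values were seen. The comparison, transcripts and lists were chosen with earlier results of these data known. Reads may be split among near-identical copies, and some low-confidence models may be gene fragments.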

Additional observations from a re-analysis of the deposited data

Results flagged for a closer look

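In the 4 Bowman W5.5 libraries, 3 of the 30 named transcripts had 1 library far from the other 3, by Dixon's ratio of the gap to the nearest library over the whole range. Chance gives such a gap in about 1 in 20 groups of continuous values. In all 3 the other libraries were tied, which fixes the ratio at 1.0, so that rate does not apply to them. AK374443 had 0.3 TPM in 1 Bowman library and 0 TPM in the other 3 (ratio 1.0). MLOC_33805.1 had 1 TPM in 1 Bowman library and 0 TPM in the other 3 (ratio 1.0). MLOC_77511.1 had 0.8 TPM in 1 Bowman library and 0.9 TPM in the other 3 (ratio 1.0), a gap equal to the single decimal of the deposited values. The vrs1 group, with 3 libraries, was not examined in this way.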

How the results depend on the processing

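The count of calls at W5.5 stayed between 76 and 140, against 98, under 2 other scalings, a pseudocount of 0.1, a filter of 5 TPM in 3 libraries, other variance models, library weights, an adjusted p below 0.01 and the omission of any 1 library. The 2 extremes were the fit of the 7 libraries alone (5 higher and 71 lower) and library weights. A filter of 1 TPM in 3 libraries removed 0 transcripts. The stage interaction had 0 calls in every alternative. With only the compared groups in the fit, the W3.5 count was 25. Library weights gave 285 calls for vrs1 against the mean of the other lines, and leaving out each library gave between 34 and 102. Transcripts at 0 in 1 line numbered between 3 and 7 when each library was left out. Chosen after seeing the data were the omission of the 4 libraries apart from their stage (102 calls) and the first principal component as covariate (112). Directions turned in the row-type transcripts alone, none of them called. For MLOC_69611.1 the log2 fold change was 0.012 with quantile normalization, 0.014 with library weights, 0.057 with the covariate and between -0.141 and 0.078 when each library was left out. AK373051 reached 0.022 with median-ratio scaling, 0.047 with quantile normalization, 0.003 with the pseudocount of 0.1 and between -0.107 and 0.136 without each library. Leaving out each library gave between -0.015 and 0.339 for MLOC_70116.1 and between -0.059 and 0.399 for AB259783.1. The cause was not tested. TPM hides depth, so low transcripts cannot be given counting errors. No paired analysis was possible because the columns carry no sample label and the labels number no replicates.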
